A study of Mus musculus with 5 samples.

Results

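The genes described here encode the adhesion molecules with which leukocytes leave blood and hold on in tissue: 26 integrin chains, the selectins Selp and Sele, the selectin ligand Selplg, the integrin counter-receptors Icam1, Icam2, Vcam1 and Madcam1, and the junction molecules Pecam1 and F11r. They were taken from a fixed list of 35 symbols, out of 19938 genes with a named probe set, and not by their values. A probe set is a group of array probes read as 1 value. A named probe set was found for 34 of the 35 genes, and 15 had a mean log2 intensity of at least 6, the filter used for testing, which 33.1% of all genes passed; Selp was not analysed here.

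Expression was measured in leukocytes, sorted as CD45+ cells from the dispersed pancreas of 5 female wild-type NOD mice, an inbred strain that develops autoimmune diabetes spontaneously, at an age of 10 weeks. No mouse carried a transgene or received a treatment that the labels name, and there was no other strain and no control group. Each mouse gave 1 array and 1 T2 value from MRI of the pancreas, a time in which the transverse signal of the tissue decays. T2 was 35.3, 35.24, 32.77, 30.02 and 28.98 ms in mice 1 to 5, and the study asked which transcripts varied with it.

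An integrin is a pair of 1 alpha and 1 beta chain, and the pair, not a single chain, decides what a cell binds. On leukocytes the beta 2 chain joins alpha L (LFA-1), alpha M (Mac-1, complement receptor 3), alpha X or alpha D, and these pairs bind ICAM molecules, complement fragments or fibrinogen. The alpha 4 chain joins beta 1 to bind VCAM-1 or beta 7 to bind MAdCAM-1, an address molecule of gut vessels that is also found on vessels of inflamed islets in NOD mice. Selectins on endothelium and platelets catch PSGL-1, the product of Selplg, before integrins bring a rolling cell to a stop.

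Itgam and Itgax, the alpha M and alpha X genes, lie next to each other on chromosome 7 and share the beta 2 partner, and their values over the 5 mice are described below. Their promoter windows are shown for that reason, from RefSeq on GRCm38.p6, each 300 bases long on the plus strand from 250 bases before to 50 after a start position. For Itgam this position is the listed gene start, base 128062640. The Itgax window was set on another position than the listed gene start, base 128129526, which it contains. Capitals mark GAGGAA, the core of the purine-rich box that PU.1, a transcription factor of myeloid and B cells, is known to bind, searched on both strands.

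Itgam, chr7:128062390-128062689: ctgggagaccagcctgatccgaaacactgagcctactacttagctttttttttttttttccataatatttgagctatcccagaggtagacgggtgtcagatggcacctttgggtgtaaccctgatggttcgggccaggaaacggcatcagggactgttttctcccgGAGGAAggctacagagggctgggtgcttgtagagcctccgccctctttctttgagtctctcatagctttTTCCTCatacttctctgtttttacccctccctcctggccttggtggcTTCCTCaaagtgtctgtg

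Itgax, chr7:128129300-128129599: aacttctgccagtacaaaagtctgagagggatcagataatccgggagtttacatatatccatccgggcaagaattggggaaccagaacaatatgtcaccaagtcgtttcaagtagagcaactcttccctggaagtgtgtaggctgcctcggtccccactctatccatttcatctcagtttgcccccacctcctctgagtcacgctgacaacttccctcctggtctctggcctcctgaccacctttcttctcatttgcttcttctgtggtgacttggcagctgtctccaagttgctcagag

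The Itgam window held 3 such matches, 1 on the strand of the gene and 2 on the other, and the Itgax window held 0. A match occurred in 28.3% of the 32851 promoter windows of the same length. Of the 7 adhesion genes past the filter that had a window, 4 held a match, namely Itgam, Itgav, Itgb1 and Itgb7, and a match is a run of letters, not a measured site.

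Integrin chains made up 11 of the 15 genes past the filter. Of 18 alpha chains 7 passed, Itga4, Itga6, Itgae, Itgal, Itgam, Itgav and Itgax, and of 8 beta chains 4 passed, Itgb1, Itgb2, Itgb3 and Itgb7. These allow 9 of the 24 known alpha-beta pairs with both chains past the filter. They are alpha 4, alpha 6 and alpha V with beta 1, alpha L, alpha M and alpha X with beta 2, alpha V with beta 3, and alpha 4 and alpha E with beta 7. In the other 15 pairs exactly 1 chain was past the filter, the beta chain in 11 and the alpha chain in 4. Probe sets differ in how brightly they read, so passing the filter does not rank the chains, and a chain under it may still be made.

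The chains under the filter included epithelial and platelet chains, but also chains that leukocytes can carry, such as Itgad. The collagen and laminin binding chains Itga1, Itga2, Itga3, Itga7, Itga10 and Itga11 had intensities between 9.67 and 45.5, where the median probe set of an array read 23.8 to 24.5. The epithelial chains Itgb4 and Itgb6 read between 21.8 and 22.2 and between 6.84 and 6.97. Itga2b, the platelet alpha IIb chain, read 24.3 to 25.7, and Itgad, the beta 2 partner alpha D of some macrophages, 24.9 to 29.5. The matrix receptor chains Itga5, Itga8 and Itga9 read between 34.2 and 51.0, 16.6 and 26.9, and 29.8 and 49.6, and Itgb8, a partner of alpha V that activates TGF-beta, between 11.5 and 16.0. None of these 15 chains was tested, and the range of their slopes, from -0.091 for Itga9 to 0.031 for Itgb8, is given as a description. Itgb5 lay just under the filter with a mean log2 intensity of 5.99 and Itgae just above it with 6.32. Itgb5, a partner of alpha V, was at or above 6 in 2 of the 5 mice, and Itgae in 3.

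Genes by which blood vessels present adhesion ligands were low in every mouse. Vcam1 read between 11.4 and 13.4, Madcam1 between 12.3 and 15.6, Sele between 15.8 and 19.1, and F11r, the junction molecule JAM-A, 15.2 on all 5 arrays. Of the 19 listed genes under the filter, 10 had equal values on 3 or more arrays, F11r and Madcam1 among them. Such readings say little about low transcripts. The endothelial markers Kdr, Tek, Tie1, Cldn5, Emcn, Plvap, Vwf, Erg, Flt1 and Robo4 were all under the filter, with a mean log2 intensity over the 10 genes between 3.91 and 3.99. The 5 platelet markers with a probe set were also under it, with means between 4.18 and 4.39. Ptprc, which encodes CD45, had a log2 intensity of 11.06 ± 0.10 (SD, n = 5). The ligands past the filter were Icam1 and Icam2, which leukocytes also carry, and Pecam1 and Selplg.

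The integrin genes differed in how far apart the 5 mice lay. The SD of log2 intensity over the mice was 0.58 for Itgam and 0.50 for Itga6, at percentiles 99.0 and 98.2 of the 6603 genes tested. Itgam and Itga6 were the 2 of 15 genes with a range of at least 1 log2 unit over the mice, against 2.92% of all genes tested. At the other end stood Itgal with an SD of 0.018, Itgax with 0.018 and Itgb3 with 0.019, at percentiles 8.44, 8.37 and 8.69. Equal values narrow such a spread: Itgax and Itgb3 had 1 value on 4 of the 5 arrays and Icam1 on 3, and 38.2% of all genes tested had equal values on 3 or more arrays. Over the 15 genes the median SD was 0.13, against 0.11 over all genes tested.

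**Figure D1:**
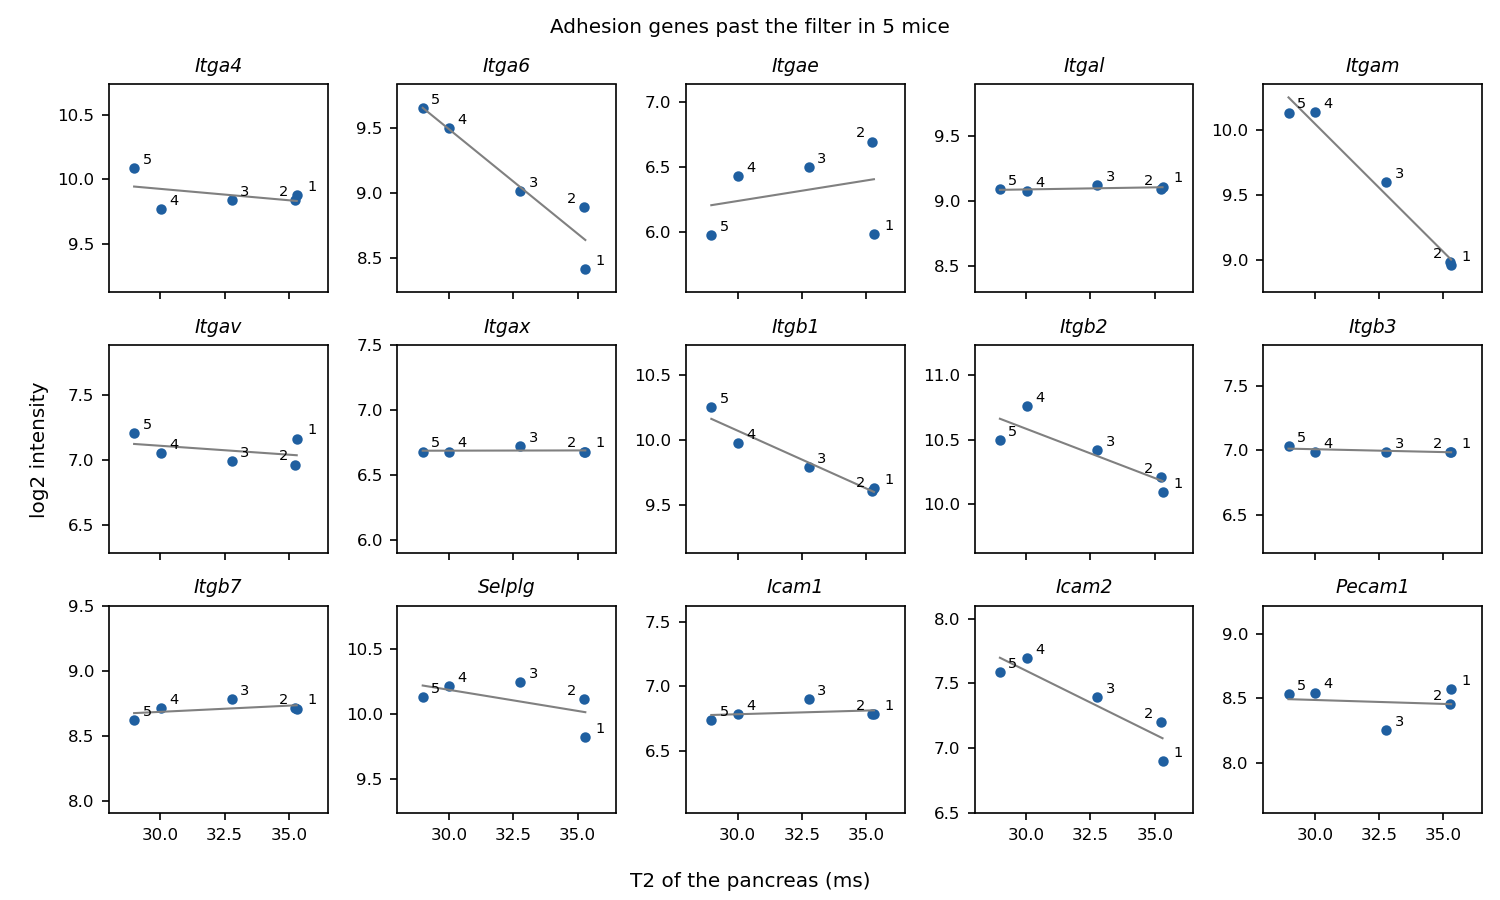
Log2 intensity (vertical axis, each panel spanning the same 1.6 units) against T2 in ms for each of the 15 adhesion genes past the filter; points are mice 1 to 5 and the grey line is the fitted slope. Itgam and Itga6 span the widest ranges, while Itgal, Itgax and Itgb3 lie flat.

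Among the beta 2 partners, Itgam had the widest range over the mice and Itgal and Itgax the narrowest. Itgam read 498, 505, 774, 1127 and 1122 in mice 1 to 5. The 2 mice of highest T2 were thus lowest and nearly equal, the 2 of lowest T2 highest and nearly equal, and mouse 3 lay between. Its slope was -0.20 ± 0.017 log2 per ms (SE, n = 5), a fold of 2.38 over the T2 range of 6.32 ms, with limma adjusted p = 0.243 over all genes tested. Reassigning T2 to the mice in all 120 ways, an exact permutation test, gave p = 0.0583 for Itgam (two-sided; the smallest p it can give is 0.00833). With genes of equal values left out Itgam passed, at limma adjusted p = 0.0239, as did 35 (0.858%) of the 4079 genes then tested, and over the 14 alternative fits its adjusted p ran from 0.0239 to 0.693.

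Itgal, the alpha L chain of LFA-1 found on nearly all leukocytes, read 552, 544, 556, 538 and 544 in mice 1 to 5. These values lie within a few percent of each other, and the slope was 0.0032 ± 0.0044 with a 95% interval from -0.0093 to 0.016. Itgax, the alpha X chain used to mark dendritic cells, read 103 in mice 1, 2, 4 and 5 and 106 in mouse 3. Itgb2, the shared beta 2 chain, read 1096, 1184, 1372, 1730 and 1442 in mice 1 to 5. Mice 1 and 2 were again lowest, with mouse 4 highest, and the slope was -0.076 ± 0.023, a fold of 1.39, with limma adjusted p = 0.828. Beta 2 and alpha M stood on the same side of their own means in 5 of 5 mice, beta 2 and alpha X in 3, and beta 2 and alpha L in 2. Such counts rest on very small deviations for chains of narrow range, here alpha L, alpha X, beta 3 and beta 7. In mouse 3 alpha M and beta 2 also lay close to their means, at 0.035 and 0.026 log2 above. Icam2, which is no integrin chain, likewise lay below its mean in mice 1 and 2 and above it in mice 3 to 5. The counts alone therefore do not show pairing.

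Whether alpha chains differed in slope was tested within arrays, on the log2 difference of 2 chains, over all 21 pairs of the 7 alpha chains past the filter. Itgal minus Itgam had a slope of 0.20 ± 0.018 log2 per ms (exact permutation p = 0.0417, adjusted 0.109 over the 21 pairs). Itgam minus Itgax had -0.20 ± 0.017 (exact p = 0.0417, adjusted 0.109), which restates the slope of Itgam, since Itgax had 1 value on 4 of the 5 arrays. Itgal had as narrow a range, so its difference to Itgam is nearly the slope of Itgam too. Itgam and Itga6 did not differ in slope beyond their error, with Itga6 minus Itgam at 0.037 ± 0.038 (exact p = 0.467, adjusted 0.613). An exact p under 0.05 was found for 8 of the 21 pairs, each of which sets Itgam or Itga6 against another chain, and none passed after adjustment. These pairs reuse the slopes of the same 2 chains and are not independent. The smallest exact p possible, 0.00833, could not pass for a single pair adjusted over 21.

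The beta 1 group held the other variable chain. Itga6, the alpha 6 chain of a laminin receptor carried by some macrophages, B cells, T cells and platelets, read 341, 474, 517, 722 and 806 in mice 1 to 5. The order of the mice by Itga6 was the order of falling T2, with a gap between mice 1 and 2, whose T2 was almost the same, of -0.48 log2 (mouse 1 minus mouse 2). Its slope was -0.16 ± 0.029, which is 2.02-fold over the T2 range, with a 95% interval from 1.41 to 2.90 (limma adjusted p = 0.444; exact permutation p = 0.025). Itgb1, the partner of most alpha chains and present on nearly all cells, read 794, 781, 886, 1009 and 1220 in mice 1 to 5. Mouse 5 was highest and mice 1 and 2 were lowest and close together. The slope of Itgb1 was -0.089 ± 0.012, or 1.48-fold (1.27 to 1.72; limma adjusted p = 0.333; exact permutation p = 0.0167). Alpha 6 and beta 1 stood on the same side of their own means in 5 of 5 mice.

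The homing integrins of lymphocytes showed no such order. Itga4, the alpha 4 chain, read 941 in mouse 1, 917 in mice 2 and 3, 875 in mouse 4 and 1089 in mouse 5, so that mouse 5 alone read high. Itgb7 read 419, 420, 440, 420 and 395 in mice 1 to 5, with mouse 5 lowest. Alpha 4 and beta 7 stood on the same side of their own means in 0 of 5 mice, and alpha 4 and beta 1 in 4. The slopes were -0.018 ± 0.019 for Itga4 (limma adjusted p = 0.857) and 0.0096 ± 0.0092 for Itgb7 (limma adjusted p = 0.839).

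**Figure D2:**
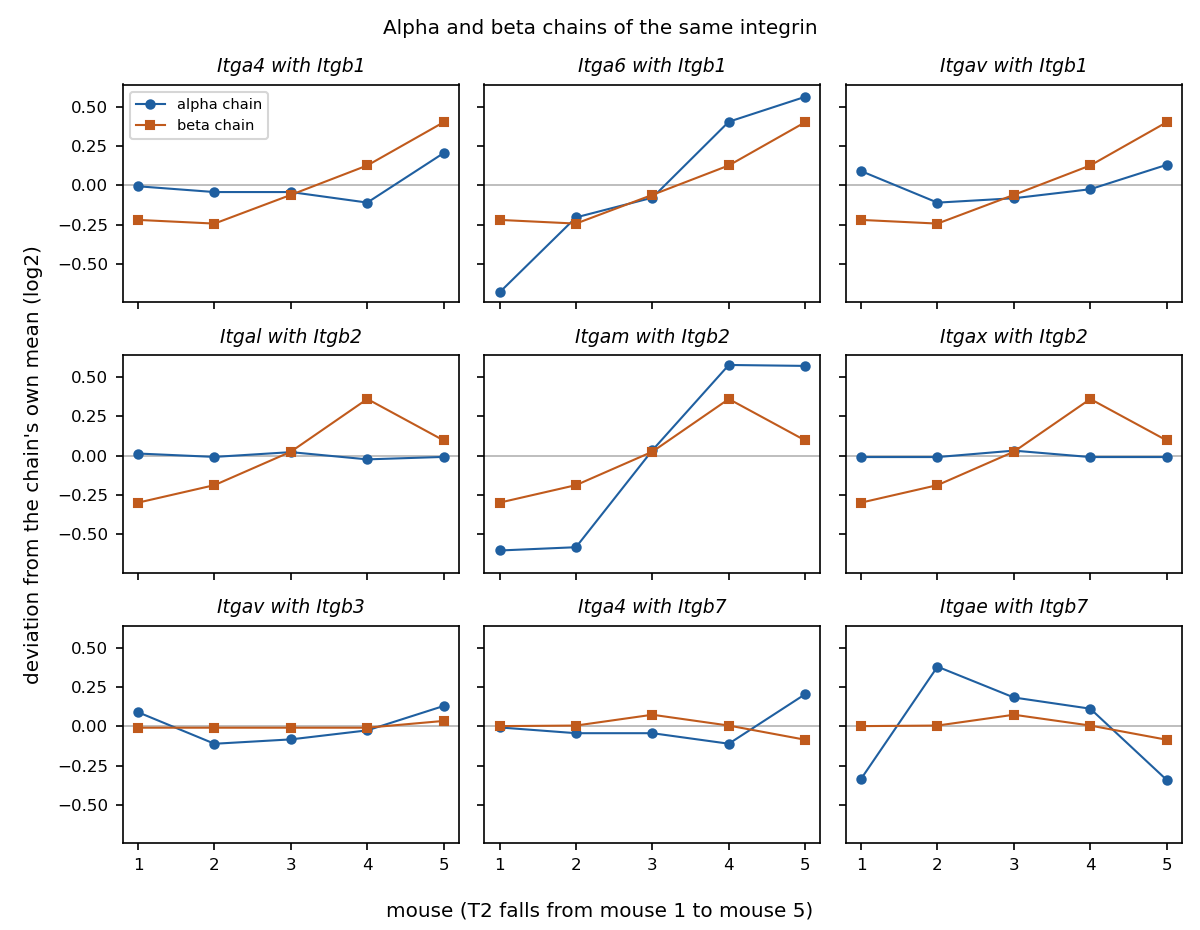
Deviation of each chain's log2 intensity from its own mean (vertical axis) in mice 1 to 5 for the 9 integrin pairs with both chains past the filter; circles are alpha chains and squares beta chains. Alpha M with beta 2 and alpha 6 with beta 1 lie on the same side of 0 in all 5 mice, and alpha 4 with beta 7 in none. Such counts alone do not show pairing.

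Itgae, the alpha E chain (CD103) of resident CD8 T cells and some dendritic cells, read 63.3, 104, 90.6, 86.3 and 63.0 in mice 1 to 5. Mice 1 and 5, from opposite ends of T2, were lowest, and the gap between mice 1 and 2 was -0.71 log2. The 10 T cell markers past the filter had log2 means of 7.91, 8.77, 8.33, 8.36 and 8.15 in mice 1 to 5, so mouse 2 was highest and mice 1 and 5 lowest in both. Cd8a, the CD8 alpha chain, had log2 intensities of 7.79, 9.21, 8.75, 8.93 and 8.42 in the same mice. Mouse 3 stood above mouse 4 for Itgae, but below it for the T cell mean and Cd8a. The part of T cell content in the Itgae values was not tested. The slope of Itgae was 0.032 ± 0.054, with limma adjusted p = 0.934. Its ligand, E-cadherin, is encoded by Cdh1, which lay under the filter with a mean log2 intensity of 5.10.

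Itgav and Itgb3 form the vitronectin receptor of macrophages and other cells. Itgav read 143, 125, 127, 132 and 147 in mice 1 to 5, highest in mouse 5 and lowest in mouse 2. Mice 1 and 2, of nearly equal T2, differed by 0.20 log2, and the slope was -0.014 ± 0.017. Itgb3 read 127 in mice 1 to 4 and 131 in mouse 5.

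Of the ligands, Icam2, a constitutive LFA-1 ligand of endothelium, platelets and leukocytes, differed most between mice. Icam2 read 120, 147, 169, 207 and 192 in mice 1 to 5. Mice 1 and 2 were lowest, as for Itgam and Itgb2, and mice 4 and 5 highest. Its slope was -0.098 ± 0.024, or 1.54-fold (1.15 to 2.06; limma adjusted p = 0.621; exact permutation p = 0.0417). Icam1, the ligand of LFA-1 and Mac-1 that inflammatory cytokines induce, read 110 in mice 1, 2 and 4, 120 in mouse 3 and 107 in mouse 5, with a slope of 0.0057 ± 0.011.

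Selplg read 903 in mouse 1 against 1107, 1215, 1188 and 1120 in mice 2 to 5. Mouse 1 stood low and the others were close together, so the slope of -0.032 ± 0.025 had a limma adjusted p = 0.828. Pecam1, which leukocytes and endothelium use to pass between cells, read 381, 352, 306, 373 and 371, lowest in mouse 3, with a slope of -0.0061 ± 0.023.

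Over the 15 genes, 0 had a T2 slope past the threshold of 0.05 on limma's adjusted p, as had 0 (0%) of all 6603 genes tested. At an unadjusted p under 0.05, 5 of the 15 had a negative slope, Itgam, Itga6, Itgb1, Itgb2 and Icam2, against 4.59% of all genes, and 0 had a positive slope, against 0.697%. In all, 10 of the 15 slopes were negative, which is close to the 67.9% over all genes tested. With the arrays quantile normalized again the count was 8 of 15 and the share over all genes 43.9%, while the slopes of Itgam, Itga6, Itgb1, Itgb2 and Icam2 were -0.19, -0.15, -0.079, -0.076 and -0.086. These 5 slopes were negative in each of the 14 alternative fits. Other filters, all probe sets, other variance models and left-out genes keep these slopes as they are, since each gene had 1 named probe set. Only the remaining fits could have turned a sign. The median slope of the 15 genes was -0.014, against -0.0074 over all genes, and it was -0.0036 without mouse 5 and -0.024 without mouse 1. T2 fell in the order of the mouse numbers, so anything else that followed that order cannot be told apart from T2.

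**Figure D3:**
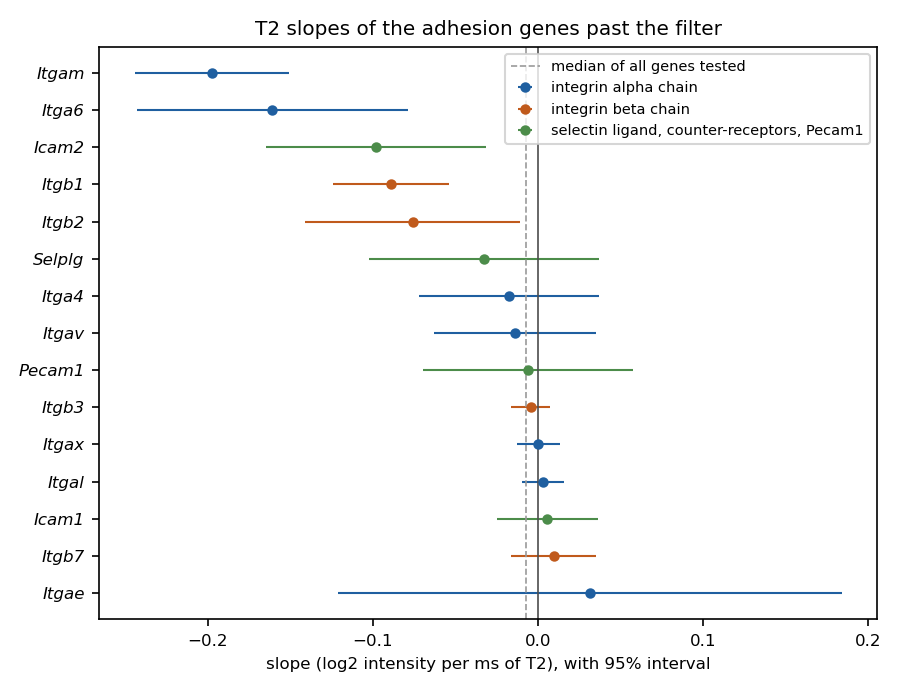
Slope of log2 intensity per ms of T2 (horizontal axis) for the 15 adhesion genes past the filter, with 95% intervals from limma's moderated fit, coloured by role; the dashed line is the median of all genes tested, -0.0074. The intervals of Itgam, Itga6, Icam2, Itgb1 and Itgb2 lie below 0, and none of these genes passed the adjusted threshold.

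Markers of several cell types were set beside these values, since alpha M and alpha 6 are each carried by more than 1 kind of leukocyte. The 11 macrophage markers past the filter had log2 means of 7.56, 7.69, 8.29, 8.82 and 8.82 in mice 1 to 5, the same order of mice as Itgam, with mice 4 and 5 nearly equal in both. Single markers did not all follow this order. Csf1r had 9.29, 8.82, 9.33, 9.44 and 9.51, and Cd68, Sirpa, Apoe and Cd14 were also lower in mouse 2 than in mouse 1. Vsig4 had the widest range, from 4.86 in mouse 1 to 8.07 in mouse 5. All 11 had a negative slope, against 67.9% of all genes tested. Of the 11, 8 had one at an unadjusted p under 0.05, against 4.59% of all genes, and 0 passed over all genes. The lowest p among them belonged to Apoe, which encodes an apolipoprotein, and C1qa, a chain of complement C1q, with slopes of -0.24 ± 0.020 and -0.25 ± 0.029. Adgre1, which encodes the macrophage surface protein F4/80, had log2 intensities of 8.08, 8.10, 8.98, 9.39 and 9.45 in mice 1 to 5. Mertk, a receptor for apoptotic cells, and Cd163 and Mrc1 lay under the filter. The neutrophil markers, whose cells also carry Mac-1, averaged 7.44, 6.98, 8.77, 6.72 and 7.97, highest in mouse 3 and lowest in mouse 4, where Itgam was highest. The B cell markers, whose cells can carry alpha 6, averaged 9.37, 8.43, 8.50, 9.04 and 9.05, highest in mouse 1 where Itga6 was lowest. From mouse 2 to mouse 5 the B cell means rose in the same order as Itga6. Mast cell markers averaged 5.62, 6.25, 6.73, 6.79 and 6.99 and dissociation stress genes 7.65, 7.60, 7.85, 7.97 and 8.46, both highest in mouse 5, and the mast cell means followed the order of mice of Itga6. All 4 mast cell markers and all 10 stress genes past the filter also had a negative slope. At an unadjusted p under 0.05 these were 3 of 4 and 4 of 10, and 0 passed over all genes. For B cell and neutrophil markers 8 of 9 and 6 of 7 slopes were negative, with 0 at an unadjusted p under 0.05. Dendritic cell markers averaged 6.85, 7.09, 7.28, 7.16 and 7.29, with the lowest p for Fscn1, which bundles actin, at -0.17 ± 0.048. NK cell markers averaged 6.26, 6.84, 6.61, 6.37 and 6.63. The lowest p of the mast cell and stress lists belonged to Cpa3 and Tpsb2, mast cell proteases, at -0.23 ± 0.059 and -0.17 ± 0.054, and to Hspa1a and Dnajb1, heat shock genes, at -0.38 ± 0.040 and -0.15 ± 0.036. Of epithelial and acinar markers 3 passed the filter, Ctrb1, Cpa1 and Cela2a, digestive enzyme genes, and of fibroblast and islet markers 0. The part of the content of any of these cell types, or of stress, in the adhesion values was not tested, and fewer cells of a type cannot be told apart from less RNA per cell in such bulk samples.

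**Figure D4:**
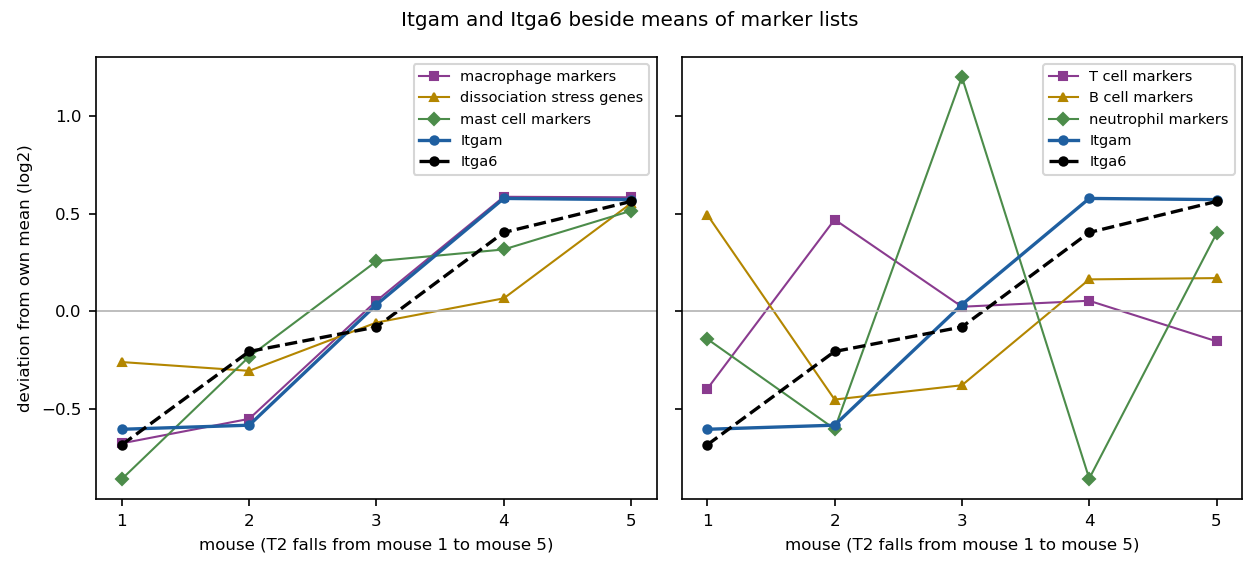
Deviation from the own mean in log2 (vertical axis) in mice 1 to 5 for Itgam (solid blue) and Itga6 (dashed black) beside the means of 3 marker lists in each panel. Itgam lies close to the macrophage marker mean in each mouse, while T cell, B cell and neutrophil means follow other orders. Mast cell marker means also rose, from 5.62 in mouse 1 to 6.99 in mouse 5. Dissociation stress genes averaged 7.65 in mouse 1 and 8.46 in mouse 5, their highest mean. The part of any of these lists in the Itgam and Itga6 values was not tested.

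The cytoplasmic proteins that switch integrins on had mostly small slopes. Of 34 such genes 28 were past the filter, 22 with a negative and 6 with a positive slope, and 1 had an unadjusted p under 0.05, with 0 over all genes. Of all genes tested 67.9% had a negative slope, and 4.59% had one at an unadjusted p under 0.05. The 1 gene under 0.05 in this list was Rap1b, a small GTPase that recruits talin to integrins, with a slope of -0.028 ± 0.0065. Parvb, an adaptor that links integrins to actin, had -0.074 ± 0.026, and Fermt3, the kindlin of blood cells, -0.032 ± 0.014. Tln1, which encodes the talin that opens the integrin head, had log2 intensities between 9.80 in mouse 2 and 10.11 in mouse 4. The median slope of the 28 genes was -0.011.

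Among enzymes that build selectin ligands and other selectin partners, 12 of 23 genes were past the filter, 9 of them with a negative slope, with 0 at an unadjusted p under 0.05 and 0 over all genes. The share over all genes was 33.1% past the filter, and 67.9% of those tested had a negative slope. Galnt1, which starts O-glycans, had a slope of -0.042 ± 0.017, St3gal4, a sialyltransferase, -0.061 ± 0.025, and Glg1, an E-selectin ligand, -0.031 ± 0.021. Fut7, the fucosyltransferase that completes the selectin-binding glycan, lay under the filter with a mean log2 intensity of 4.04. Of 28 other surface adhesion and tetraspanin genes 13 passed the filter. A negative slope was found for 8 of the 13, near the 67.9% over all genes tested, with 0 at an unadjusted p under 0.05 and 0 over all genes. Cd9, a tetraspanin that associates with integrins, had a slope of -0.082 ± 0.033, Ceacam1 -0.059 ± 0.029 and Alcam, the ligand of CD6, -0.047 ± 0.027.

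Of 21 matrix and plasma ligands of integrins 4 passed the filter, Fn1, Thbs1, Lamc1 and Tgfb1, where 33.1% of all genes passed it. All 4 had a negative slope, against 67.9% of all genes tested. Of the 4, 2 had one at an unadjusted p under 0.05, against 4.59% of all genes, and 0 passed over all genes. Thbs1, which encodes thrombospondin-1, a ligand of alpha V beta 3 and of CD47, had log2 intensities of 8.35, 8.93, 9.56, 10.57 and 10.50 in mice 1 to 5. These values followed the order of Itgam, with mice 4 and 5 highest, and gave a slope of -0.32 ± 0.044, a fold of 4.08 with limma adjusted p = 0.333. Fn1, fibronectin, the ligand of alpha 4 beta 1 and alpha V beta 3, read 11.51, 11.70, 12.07, 12.55 and 12.55, a fold of 2.03. Lamc1, the gamma 1 chain of laminins, the ligands of alpha 6 beta 1, had a slope of -0.027 ± 0.021.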

How the data were processed

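Total RNA of CD45+ pancreatic cells from 5 mice was hybridised to 1 array each. The deposited values are intensities on a linear scale, 1 per probe set; the authors used Affymetrix Power Tools for RMA (background correction, quantile normalization, median polish), according to the submitters' processing notes. Tool versions and the build were not given in the sources used here. Log2 was taken. Probe sets with 1 gene symbol in GEO's platform annotation (21789 of 35556) were named, and the set of highest mean stood for a gene. Genes whose mean log2 intensity reached 6 (6603 of 19938) were fitted on T2 with limma 3.58.1 in R 4.3.3 (lmFit, eBayes; 3 residual degrees of freedom; two-sided; Benjamini-Hochberg adjustment over these genes). The limma p-values set each T2 slope against the scatter of these mice around the fitted line, and the number of arrays limits precision. With 5 mice no correlation was computed. Itgam also has 3 probe sets shared with other symbols, which were not used. All members past the filter are described, and in each list of other adhesion genes the 3 of lowest p; marker genes were named for lowest p in the macrophage, mast cell, dendritic cell and stress lists, and all other genes named were chosen after their values were seen. Members and lists were chosen with earlier results of these data known. The fit was tested on simulated data. Alternatives were other filters, renormalized or centred arrays, all probe sets, ranks of T2, other variance models, array weights, a looser threshold, genes of equal values left out, exact permutation and each mouse left out.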

Additional observations from a re-analysis of the deposited data

Results flagged for a closer look

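In each of the 15 adhesion genes past the filter, the gap of the highest or lowest mouse to its nearest neighbour was set against the whole range, and 3 genes stood out; chance gives about 1 in 20, and all 3 had equal values on 3 or more arrays, which makes such a gap. Itgax was highest in mouse 3, at log2 6.72 against 6.68 in the other mice (gap share 1). Itgb3 was highest in mouse 5, at 7.03 against 6.99 (gap share 1). Icam1 was highest in mouse 3, at 6.90 against 6.74 to 6.79 (gap share 0.727).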

How the results depend on the processing

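The alternatives gave 203 slopes of single adhesion genes, and these kept their direction and side of the threshold in all but 14, with slopes of 0 counted as kept. The slope was 0 for Itgax with ranks of T2 and without mouse 3, and for Itgb3 without mouse 5. Fits with another filter, all probe sets, another variance model or genes left out keep these slopes as they are, so no sign could turn there. Itgam passed with genes of equal values left out (adjusted p = 0.0239), the 1 member called then against 0, with 35 of 4079 genes called. Over all genes 4 were called with renormalized arrays and 4 with array weights, and no member. In the fit as reported 0 members passed at a threshold of 0.10. Signs turned only in small slopes: with renormalized arrays Itgb3 had 0.0072 and Pecam1 0.0043, and with array weights Itga4 had 0.0023. Without each mouse in turn, slopes ran from -0.035 to 0.016 for Itga4, -0.022 to 0.095 for Itgae, -0.033 to 0.0051 for Itgav, -0.0012 to 0.0017 for Itgax, -0.0024 to 0.013 for Itgb7, -0.0036 to 0.010 for Icam1 and -0.024 to 0.0030 for Pecam1. The median slope of members was 0 with no filter, where 16 of 34 slopes were negative, -0.032 with a filter of 7, -0.0017 with renormalized arrays, -0.025 with genes of equal values left out and -0.024 to -0.0036 without each mouse; filters and left-out genes change which members are counted, and the cause was otherwise not tested. With a filter of 5, 17 chains and 15 pairs were counted in place of 11 and 9, and 11 to 12 chains and 9 to 10 pairs without each mouse. With a filter of 7 the counts were 8 chains and 6 pairs, without Itgae, Itgax and Itgb3. Asking for at least 6 on every array gave 10 chains and 8 pairs, without Itgae. No paired analysis was possible because there was 1 group. Values near the median intensity of an array say little about low transcripts.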
